A study of Homo sapiens with 11 samples.

Results

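The IRE1 and XBP1 arm of the unfolded protein response, and the degradation machinery it feeds, are described here through 10 genes, which were looked up by symbol in the deposited count table. These are ERN1, XBP1, DNAJB9, DNAJC3, SEC61B, HERPUD1, SEL1L, SYVN1, DERL1 and EDEM1. All 10 were found among 27671 gene symbols, and all 10 were among the 15591 genes with enough counts to be tested. The cells were HEK293T, a line of human embryonic kidney cells that carries the SV40 large T antigen. The treatments were A8, which the series title ties to the viral RNA sensor RIG-I and the integrated stress response, and ISRIB, a small molecule that acts on the translation factor eIF2B and blunts that response. Polyadenylated RNA was sequenced from 4 groups, namely DMSO as vehicle (n = 3), DMSO with ISRIB (n = 2), 10 µM A8 (n = 3) and 10 µM A8 with ISRIB (n = 3). All groups carry the HEK293T label, while the growth protocol names HEK293, and no dose of ISRIB is given in the labels used here. The duration is 8 h in the titles but 4 h in the treatment protocol, and which is right was not settled. The submitters left out the second ISRIB-only replicate for poor quality, so that group rests on 2 libraries, called a and b. The replicates are called biological in the series' design text, and p-values measure only the spread between these libraries.

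IRE1, encoded by ERN1, is a kinase and RNase of the endoplasmic reticulum (ER) membrane. When unfolded proteins build up it cuts an intron out of XBP1 mRNA, and the spliced message encodes the transcription factor XBP1s. XBP1s raises genes of protein folding, translocation into the ER and ER-associated degradation (ERAD), the route by which misfolded proteins are drawn back into the cytosol and destroyed by the proteasome. Splicing of XBP1 cannot be read from counts per gene, because both forms are counted together, so XBP1 values below are its total message.

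Library totals ran from 34072107 to 35318111 counts with 17892 to 18017 genes detected, and all 8 markers fixed for HEK cells were found in all libraries, at a sum of 908 to 1039 CPM. CPM are a library's counts brought to a size shared by all libraries, and they are scaled by TMM, which corrects for differences in library composition. Of the 8 markers fixed for other cell types, PTPRC, CD3E, HBB and PECAM1 were at 0 in all libraries, and COL1A1 made up 15.7 to 21.2 CPM of a sum of 16.3 to 21.7 CPM. Where a level is lower in bulk RNA, fewer cells that express the gene and less RNA per cell cannot be told apart.

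The DNA upstream of HERPUD1 and XBP1 is shown because these are the genes on which the results turn. Both sequences are the 250 bases before the start in RefSeq's table on GRCh38.p14, read 5′ to 3′ on the gene's strand. For XBP1, which has 2 entries there, the first is shown, and the other held none of the motifs below. No coordinate is taken from the authors' build, GRCh37. HERPUD1 is at chr16:56931892-56932141 on the plus strand and XBP1 at chr22:28800570-28800819 on the minus strand. Capitals mark the motif matches described next.
HERPUD1: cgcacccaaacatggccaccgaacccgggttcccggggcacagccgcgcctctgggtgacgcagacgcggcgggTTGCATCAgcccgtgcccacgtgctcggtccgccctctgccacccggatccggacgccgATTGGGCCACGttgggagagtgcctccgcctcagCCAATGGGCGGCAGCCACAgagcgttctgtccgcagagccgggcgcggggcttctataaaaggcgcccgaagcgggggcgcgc
XBP1: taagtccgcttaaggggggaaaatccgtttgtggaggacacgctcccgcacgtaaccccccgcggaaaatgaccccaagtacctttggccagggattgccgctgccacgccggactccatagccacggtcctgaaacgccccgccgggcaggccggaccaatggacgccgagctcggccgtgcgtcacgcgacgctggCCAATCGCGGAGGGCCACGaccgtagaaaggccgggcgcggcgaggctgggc

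Motifs were searched on both strands of the 250 bases upstream of 35116 RefSeq starts, which hold 9 of the 10 genes, all but DERL1. The ER stress response element, which is CCAAT and CCACG with any 9 bases between them and is a known site of ATF6 and XBP1s, was in 26 of these windows (0.074%). It was upstream of XBP1, as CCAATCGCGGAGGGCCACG at 52 to 34 bases before the start. With any base allowed in its last place, which includes the matches above, it was in 99 windows (0.282%), and HERPUD1 then had CCAATGGGCGGCAGCCACA at 83 to 65 bases before the start. The second form of the element, ATTGG and CCACG with 1 base between them, was in 18 windows (0.0513%) and upstream of HERPUD1 as ATTGGGCCACG, 117 to 107 bases before the start. HERPUD1 also held TTGCATCA at 176 to 169 bases before the start, which on the other strand matches TGATGNAA, the core of the element bound by ATF4 with its CHOP or C/EBP partners. That core was in 1104 windows (3.14%). The core TGACGTGG, known as an XBP1s site and found in 215 windows (0.612%), was in none of the 9 genes' windows. These matches describe letters in these windows and show no binding.

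Among the 10 genes, 1 passed the test in 1 of the comparisons made: HERPUD1 was lower in cells given A8 with ISRIB than in cells given A8 alone. HERPUD1 encodes an ER membrane protein with a ubiquitin-like domain that organises the ERAD ligase complex, and it is known to respond to ATF4 as well as to ATF6 and XBP1s. It stood at 64.0, 63.3 and 64.2 CPM in the vehicle libraries and at 78.0, 76.9 and 72.7 CPM with A8. With A8 and ISRIB it stood at 59.9, 59.6 and 62.0 CPM, and with ISRIB alone at 56.2 and 57.0 CPM. Each A8 library was above each library of the other groups, and none of the 4 groups overlapped another. Of all genes tested, 2.45% had their A8 libraries all above or all below the other 8, and in 0.18% none of the 4 groups overlapped another, patterns picked after the values were seen.

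**Figure D1:**
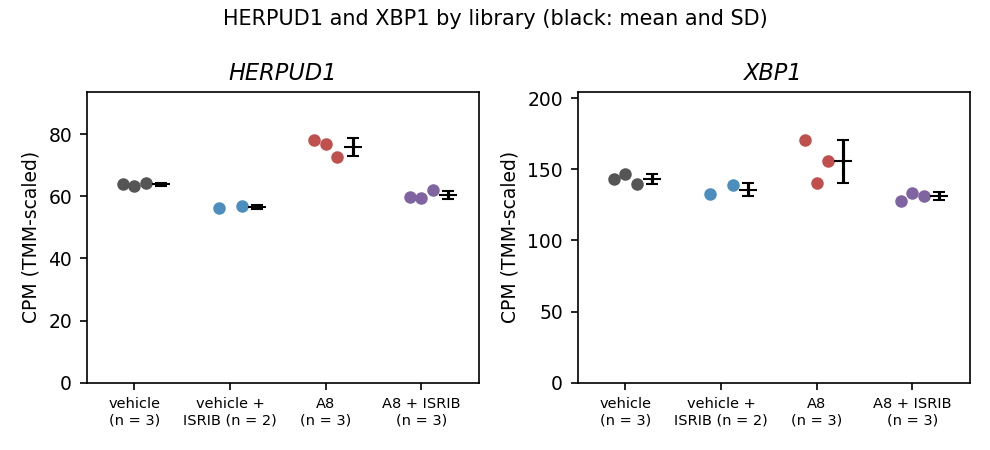
Levels of HERPUD1 (left) and XBP1 (right) in CPM, with 1 point per library and the mean with its SD in black for each of the 4 groups. HERPUD1 is at 72.7 to 78.0 CPM with A8 and at 56.2 to 64.2 CPM in the other 8 libraries, while 1 of 3 A8 libraries of XBP1 lies within the range of the vehicle libraries.

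For HERPUD1 the means were 63.8 ± 0.45 CPM (SD, n = 3) with vehicle, 75.8 ± 2.77 CPM (SD, n = 3) with A8, 60.5 ± 1.34 CPM (SD, n = 3) with both and 56.6 ± 0.62 CPM (SD, n = 2) with ISRIB alone. Adding ISRIB to A8 changed HERPUD1 by -0.33 in log2 (SE 0.06), with a Benjamini-Hochberg adjusted p of 0.0232 in edgeR's quasi-likelihood test over all 15591 genes. In that comparison 0.16% of genes passed with a lower level. The log2 fold change stayed between -0.36 and -0.31 over 14 alternatives, of which 8 kept the call and 6 lost it. In edgeR it was lost with a replicate block (adjusted p = 0.239) and in a fit of only the 2 groups compared (0.118). It was also lost in edgeR without A8 library 1 (adjusted p = 0.176), A8 library 2 (0.143), A8 with ISRIB library 1 (0.109) or A8 with ISRIB library 2 (0.214).

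Against vehicle, A8 gave HERPUD1 a log2 fold change of 0.25 (SE 0.06, 95% interval 0.12 to 0.37). The unadjusted p was 0.000567 in edgeR's test and the adjusted p was 0.125, so it did not pass. It passed in DESeq2's Wald test (adjusted p = 0.0058) and, in edgeR, with each library's length trend taken out (0.0315). Those settings called more genes in all, 61 higher and 68 lower in DESeq2, and 54 and 53 with that trend taken out. ISRIB alone gave -0.17 (SE 0.07) in log2 against vehicle, with an unadjusted p of 0.0178 and an adjusted p of 0.458 in edgeR. A8 with ISRIB gave -0.08 (SE 0.06) against vehicle and 0.10 (SE 0.07) against ISRIB alone, neither past the threshold. The interaction, the test of whether ISRIB alters the response to A8, was -0.15 in log2 (SE 0.09, edgeR adjusted p = 0.671). These comparisons share libraries and are therefore not independent of each other.

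XBP1 encodes the transcription factor of the arm. Its total message was at 143.1, 146.8 and 139.9 CPM with vehicle and at 170.3, 140.5 and 156.1 CPM with A8. It was at 127.9, 133.6 and 131.5 CPM with A8 and ISRIB, and at 132.3 and 138.8 CPM with ISRIB alone. All 5 libraries with ISRIB were below all 6 without it, as for HERPUD1, and the vehicle and A8 libraries overlapped. The libraries with and without ISRIB were apart in this way, in either direction, for 0.859% of all genes tested, again a pattern picked after the values were seen. The mean was 155.6 ± 14.9 CPM (SD, n = 3) with A8, where the 3 libraries were farthest apart, and 131.0 ± 2.9 CPM (SD, n = 3) with both. Between these groups the log2 difference of XBP1 was -0.25 (SE 0.07), with an unadjusted p of 0.00172 and an adjusted p of 0.388 in edgeR. Over 14 alternatives the adjusted p ran from 0.0765 to 0.993, so XBP1 passed in none. In edgeR, A8 against vehicle gave XBP1 0.12 (SE 0.07, adjusted p = 0.564) and the interaction -0.17 (SE 0.10, adjusted p = 0.678) in log2.

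ERN1, the sensor itself, was at 5.76, 7.17 and 7.77 CPM with vehicle and at 7.26, 9.12 and 7.71 CPM with A8. With A8 and ISRIB it was at 9.37, 5.64 and 5.23 CPM, so that the highest and the lowest ERN1 value of the series were in 1 group. Its log2 fold change with A8 was 0.22 (SE 0.18, edgeR adjusted p = 0.738), with a 95% interval of -0.17 to 0.61. That interval holds both 0 and the value of HERPUD1.

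DNAJB9 and DNAJC3 encode cofactors of the ER chaperone BiP. DNAJB9, known also for holding IRE1 in its inactive state, was the lowest of the 10 genes in CPM, at 2.79 to 3.62 over all 11 libraries, and its group means lay between 3.05 ± 0.03 (SD, n = 3) with A8 and ISRIB and 3.28 ± 0.36 (SD, n = 3) with A8. With A8 its log2 fold change was 0.04 (SE 0.15). DNAJC3, which also binds and restrains the eIF2 kinase PERK, was at 8.36 to 13.7 CPM and had a log2 fold change of -0.06 (SE 0.14) with A8. SEC61B encodes a subunit of the channel through which new proteins enter the ER. It was at 54.1 to 69.4 CPM, with overlapping groups throughout, and had a log2 fold change of -0.02 (SE 0.09) with A8.

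The other ERAD genes were SEL1L and SYVN1, which encode the adaptor and the ubiquitin ligase of the HRD1 complex, DERL1, whose product is part of the exit channel, and EDEM1, which encodes a lectin that passes misfolded glycoproteins on for degradation. SYVN1 had group means of 85.9 ± 0.13 CPM (SD, n = 2) with ISRIB alone to 93.8 ± 6.93 CPM (SD, n = 3) with A8 and ISRIB. DERL1 kept within 26.2 to 30.0 CPM in all 11 libraries. The log2 fold changes with A8 were 0.01 (SE 0.07) for SYVN1 and 0.07 (SE 0.08) for DERL1, with 95% intervals of -0.13 to 0.15 and -0.09 to 0.23. SEL1L was at 13.3, 12.4 and 14.4 CPM with vehicle, at 14.4 and 17.1 CPM with ISRIB alone, and at 12.4, 16.01 and 14.7 CPM with A8. EDEM1 was at 9.53, 10.7 and 11.98 CPM with vehicle and at 9.27, 9.76 and 9.92 CPM with A8, ranges that overlap, and the log2 difference was -0.16 (SE 0.12). The EDEM1 value in A8 with ISRIB against ISRIB alone was -0.26 (SE 0.14), with an unadjusted p of 0.0685 and an adjusted p of 0.634 in edgeR.

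**Figure D2:**
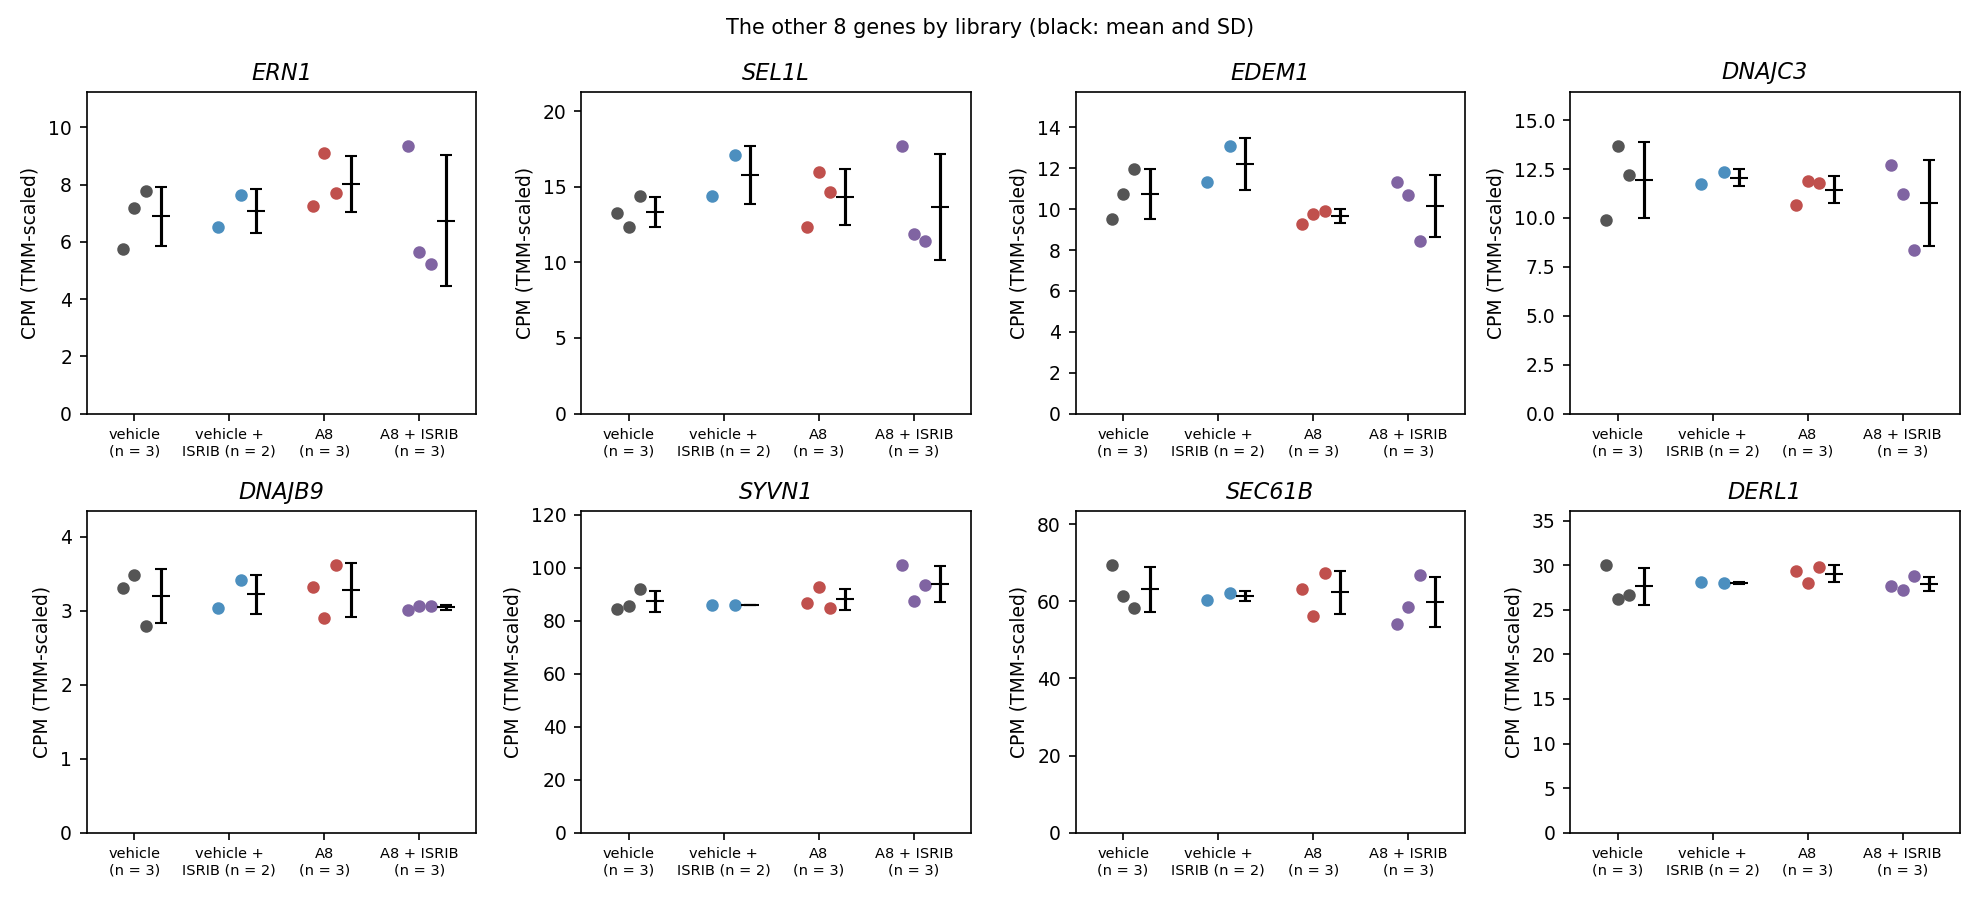
Levels in CPM of the 8 genes other than HERPUD1 and XBP1, with 1 point per library and the mean with its SD in black for each group; each vertical axis starts at 0 and has its own scale. For all 8 genes the vehicle and A8 libraries overlap, and ERN1, SEL1L, EDEM1, DNAJC3, SYVN1 and SEC61B have their largest SD in A8 with ISRIB.

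Counted over the 10 genes, A8 against vehicle gave 0 calls in edgeR, where 0.141% of all genes tested were called. HERPUD1 was called in DESeq2, where 61 genes were called higher and 68 lower of 10301 with an adjusted p. DESeq2 gave no adjusted p for DNAJB9 in A8, in ISRIB or in both against vehicle or in the interaction, so its counts there are over 9 genes. At an unadjusted p under 0.05 there was 1 gene (10.2% of all genes), and 1 gene had groups that did not overlap (16.6% of all genes), HERPUD1 in both cases. The edgeR adjusted p-values of the 10 ran from 0.125 to 0.970. Of their log2 fold changes 7 were above 0, as were 51.8% of all genes tested. The median of the 10 was 0.05 beside 0.01 over all genes tested. Over the 10 genes the 95% intervals reached from -0.42 to 0.61 in log2.

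ISRIB alone against vehicle gave 0 calls among the 10 in edgeR and in DESeq2, and 0% of all genes were called in edgeR, where DESeq2 called 4 higher and 46 lower. HERPUD1 was the 1 gene at an unadjusted p under 0.05 (9.58% of all genes), and 3 genes had groups that did not overlap (29% of all genes), with XBP1 and HERPUD1 lower and SEL1L higher. A8 with ISRIB against vehicle gave 0 calls in both tools (0.0192% of all genes in edgeR) and 0 genes at an unadjusted p under 0.05 (7.7%). In that comparison XBP1 and HERPUD1 had groups that did not overlap, both lower, where 12.4% of all genes did not overlap. In A8 with ISRIB against ISRIB alone, 0 were called in both tools (0.0128% of all genes in edgeR), 0 had an unadjusted p under 0.05 (8.32%), and HERPUD1 and SYVN1 were higher without overlap (25.2%).

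When ISRIB was added to A8, HERPUD1 was called lower in edgeR (0.16% of all genes) and in DESeq2 (38 of 11921 genes). HERPUD1 and XBP1 had an unadjusted p under 0.05 in edgeR (5.91% of all genes), and the same 2 genes had groups that did not overlap (11.1%). The median log2 fold change of the 10 was -0.08, with 8 of 10 below 0, beside 0.00 over all genes tested, of which 49.7% were above 0. The interaction gave 0 calls in both tools (0.0257% of all genes in edgeR) and 0 genes at an unadjusted p under 0.05 (8.48%). Its values were below 0 for 9 of the 10 genes, where 48.2% of all genes were above 0. Their intervals reached from -0.87 to 0.37 in log2. With each library's trend with GC content taken out, 4 of the 10 were above 0, and the median went from -0.11 to -0.02.

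**Figure D3:**
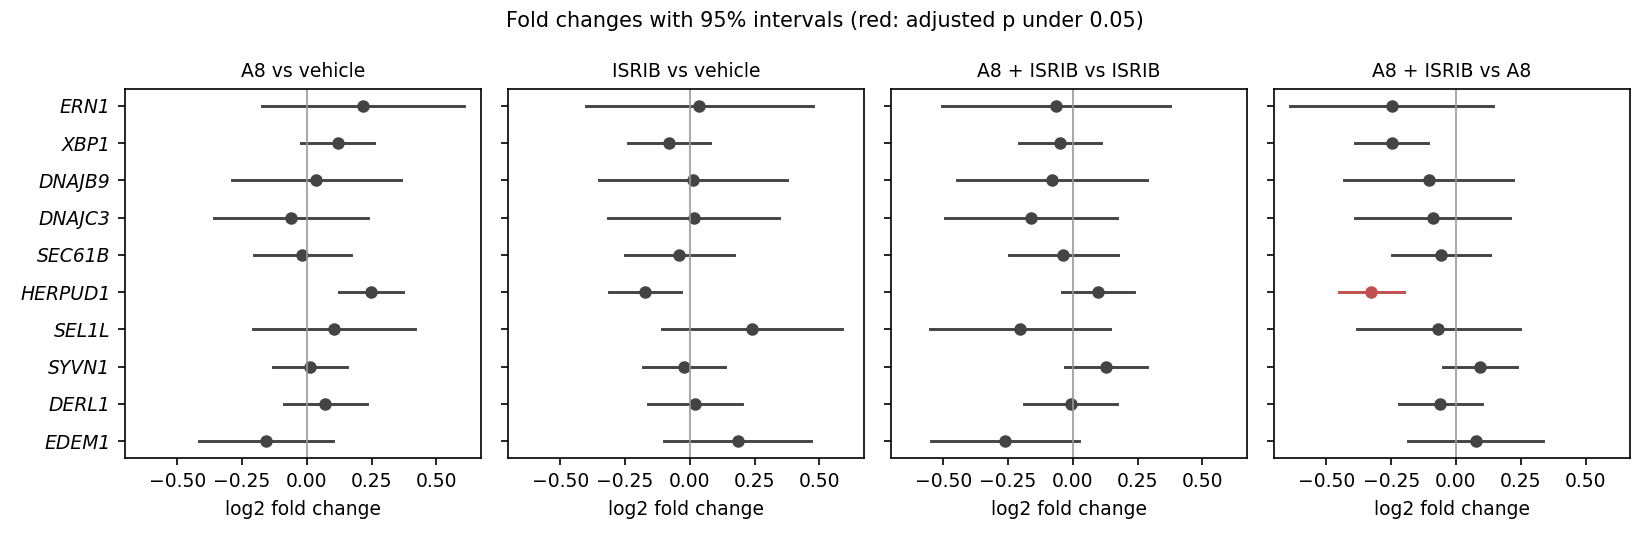
Log2 fold changes (horizontal axis) of the 10 genes with 95% intervals from edgeR in A8 against vehicle, ISRIB against vehicle, A8 with ISRIB against ISRIB, and A8 with ISRIB against A8; red marks an adjusted p under 0.05. HERPUD1 at -0.33 in the last panel is the only red point, and the widest intervals belong to ERN1.

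The authors' deposited table for A8 against DMSO put HERPUD1 at 0.25 in log2 (SE 0.08), with a DESeq2 adjusted p of 0.165. In the authors' deposited tables for ISRIB and for A8 with ISRIB against DMSO, HERPUD1 was at -0.18 and -0.08 in log2, with adjusted p-values of 0.876 and 0.999. None of the 10 genes passed in these 3 tables. Base means in the authors' deposited tables were above the highest normalized count of the 11 libraries for 6 of the 10 genes, HERPUD1 among them. How this arose was not tested.

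To set the genes' levels beside each other, vehicle CPM was divided by the length of the longest coding transcript in an annotation on GRCh38. Per kilobase, SEC61B was at 107.4 ± 9.78 CPM, XBP1 at 77.5 ± 1.87 CPM, SYVN1 at 27.7 ± 1.28 CPM and HERPUD1 at 21.7 ± 0.15 CPM (SD, n = 3 each). DERL1 followed at 8.27 ± 0.63 CPM per kilobase. The lowest were DNAJC3 at 2.13 ± 0.35, EDEM1 at 1.75 ± 0.20, SEL1L at 1.68 ± 0.13, DNAJB9 at 1.18 ± 0.13 and ERN1 at 0.88 ± 0.13 CPM per kilobase. In that order the vehicle libraries of neighbours overlapped for DNAJC3 with EDEM1 and for EDEM1 with SEL1L, and for no other pair. The order rests on the transcript chosen: with the median transcript length of each gene, HERPUD1 was the third at 75.6 and SYVN1 the fifth at 29.6 CPM per kilobase.

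The 4 genes with the longest transcripts, SEL1L at 7925, ERN1 at 7876, EDEM1 at 6146 and DNAJC3 at 5591 nucleotides, varied in part with a trend that ran through whole libraries. In each library the deviation of a gene from its mean over the 11 libraries was set against transcript length, across 14376 genes, which are not independent replicates. Spearman's rho was -0.440 in A8 with ISRIB library 3 and 0.343 in A8 with ISRIB library 1, the extremes of the series. The mean log2 deviation of the 4 genes was -0.37 and 0.25 in the same libraries, also the extremes. The A8 with ISRIB group thus held both ends, and ERN1 varied there with a coefficient of variation of 33.8%, against 14.9% with vehicle. Some libraries lay off this relation. ISRIB-only library b had a rho of 0.039 and a mean deviation of 0.21, and A8 with ISRIB library 2 had 0.048 and -0.14. A trend with GC content also ran through the libraries, with rho from -0.389 in ISRIB-only library b to 0.454 in vehicle library 1. With the length trend taken out, the SE of ERN1 in A8 against vehicle went from 0.18 to 0.15 and that of SEL1L from 0.15 to 0.12, and none of the 4 was called in any comparison. A fall was not confined to the 4, as the SE of DERL1, at 3340 nucleotides, went from 0.076 to 0.072.

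**Figure D4:**
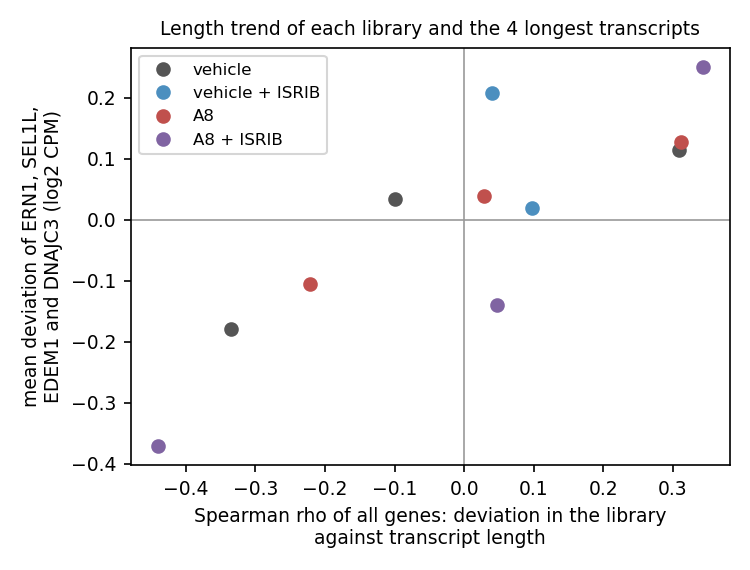
Each point is 1 of the 11 libraries, coloured by group; the horizontal axis is Spearman's rho between the log2 deviation of all genes in that library and transcript length, and the vertical axis is the mean log2 deviation of ERN1, SEL1L, EDEM1 and DNAJC3. The A8 with ISRIB libraries span the plot, from -0.440 and -0.37 to 0.343 and 0.25.

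HERPUD1 and EDEM1 had the widest range of group means on the log2 scale of the 10 genes. The genes whose pattern over the 11 libraries was nearest to theirs were sought among 10906 genes whose log2 CPM averaged 2 or more, by the root mean square difference of centred log2 CPM. Nearest to HERPUD1 were MARS, YARS and AARS, which encode methionyl-, tyrosyl- and alanyl-tRNA synthetase, at distances of 0.039, 0.039 and 0.054, where HERPUD1 itself deviated from its mean by 0.156. Their log2 fold changes with A8 were 0.24, 0.25 and 0.26, and with ISRIB added to A8 -0.33, -0.31 and -0.24. MARS and YARS passed in the latter comparison (edgeR adjusted p = 0.0116 and 0.0179) and AARS did not (0.166). All 3 were picked for their likeness to HERPUD1 in these same libraries. Similar values therefore follow from the choice and are no separate result. Nearest to EDEM1 were PCYOX1, FAM8A1 and NUS1 at 0.043, 0.074 and 0.076, where EDEM1 deviated from its mean by 0.173. None of these 3 passed in A8 against vehicle, with log2 fold changes of -0.07, -0.10 and -0.13.

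Of the partners of IRE1 signalling and of XBP1 splicing, such as the RTCB ligase that rejoins the cut XBP1 message, 13 of 14 listed genes were tested and 0 were called with A8 in edgeR, 0 in DESeq2 and 0 at an unadjusted p under 0.05, beside 10.2% of all genes. The furthest from 0 were ZBTB8OS, which encodes archease, a cofactor of that ligase, at 0.24 (SE 0.12) and MAP3K5, the kinase ASK1, at -0.20 (SE 0.11) in log2. Among 24 other genes known as XBP1s targets, with roles in translocation and secretion, 0 were called in either tool and 2 had an unadjusted p under 0.05, both lower, where 10.2% of all genes were under 0.05. Their furthest values were those of SEC61G, a subunit of the same channel as SEC61B, at 0.19 (SE 0.14), and SRPRB, a subunit of the signal recognition particle receptor, at -0.19 (SE 0.06, edgeR adjusted p = 0.324). The medians of the lists were -0.01 and 0.02, beside 0.01 over all genes tested.

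The wider ERAD machinery gave the same count. Of 16 genes of substrate recognition and retrotranslocation 0 were called with A8 in either tool and 1 had an unadjusted p under 0.05, HERPUD2, the paralog of HERPUD1, at 0.19 (SE 0.08, edgeR adjusted p = 0.450). Of 21 ubiquitin ligase, E2 enzyme and extraction genes 0 were called in either tool and 3 had an unadjusted p under 0.05, all higher. The share of all genes under 0.05 was 10.2%, and of these 4 lists this last one was above that share and the other 3 below it. Furthest from 0 in that list were TRIM13 at 0.27 (SE 0.12) and RNF5 at 0.22 (SE 0.10), both membrane-anchored ubiquitin ligases, and neither passed. The medians were 0.05 and 0.03. When ISRIB was added to A8, 0 genes of these 4 lists were called in either tool, and 2 had an unadjusted p under 0.05 in edgeR, 1 target of XBP1s and 1 gene of recognition and retrotranslocation, both lower, where 5.91% of all genes were under 0.05.

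The other arms of the unfolded protein response were measured in the same libraries. Of 10 ER chaperone genes of the ATF6 arm 0 were called in A8 against vehicle in edgeR, but 9 of 10 values were below 0, 8 had an unadjusted p under 0.05, all lower, and the median was -0.16 in log2. Of all genes tested, 51.8% had a value above 0 and 5.34% were lower at an unadjusted p under 0.05. DESeq2 called 2 of them lower, HSPA5, which encodes BiP, and SDF2L1, named after their values were seen. SDF2L1 was at 57.1 ± 6.17 CPM (SD, n = 3) with vehicle and 44.5 ± 2.79 CPM (SD, n = 3) with A8, and its edgeR log2 fold change was -0.36 (SE 0.09, adjusted p = 0.127). MANF, a secreted ER stress protein, was at -0.28 (SE 0.08, edgeR adjusted p = 0.207). So HERPUD1 was above 0 with A8 where the chaperone list was mostly below 0; that difference was not tested.

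Of 18 genes listed for the PERK and ATF4 arm 8 rose with A8 in edgeR and none fell, where 0.0834% of all genes were called higher. The median of the 18 was 0.62 in log2. PERK activity was not measured, and whether PERK lay behind these values was not tested. The 8 were CHAC1, ASNS, SESN2, PSAT1, CTH, PCK2, STC2 and SLC6A9, with values from 0.53 (SE 0.06) for PSAT1, an enzyme of serine synthesis, to 1.70 (SE 0.15) for CHAC1, which degrades glutathione. When ISRIB was added to A8, 9 of the 18 fell, the same 8 and DDIT4, where 0.16% of all genes were called lower, and the median was -0.79. The value of HERPUD1, 0.25 with A8 and -0.33 with ISRIB added, lay on the same side of 0 as these medians in both comparisons, and its size was below both. ISRIB alone against vehicle gave the 18 genes a median of -0.29, with 1 value above 0. There 11 were lower and 1 higher at an unadjusted p under 0.05 in edgeR (5.59% and 4% of all genes). In that comparison edgeR called 0 and DESeq2 called 6 lower. The interaction had a median of -0.41, and edgeR called 2 lower, PSAT1 and SLC6A9 (0.0128% of all genes). The lists were written with earlier results of these data known, so their counts are given as description.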

How the data were processed

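Polyadenylated RNA of 11 libraries in 4 groups was counted per gene symbol. The authors deposited whole-number counts for 27671 symbols, and DESeq2 tables holding log2 fold changes, p-values, base means (signal: average normalized counts) and a test statistic (a score), per the file headers. DESeq, DESeq2 and the build GRCh37 are named, per the submitters' processing notes. The aligner, like the counting program, strand setting and annotation, is not given in the sources used here, so reads of overlapping genes could be shared.

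Groups follow the sample titles. The numbers of the ISRIB-only columns differ from those in the titles, so both columns were assigned to their group with no number. Genes were kept by filterByExpr (15591) and scaled with TMM. All 11 libraries entered 1 quasi-likelihood fit of group means in edgeR 4.0.16 (R 4.3.3), with Benjamini-Hochberg adjustment over all genes tested and a threshold of 0.05. The standard error (SE) comes from the F statistic. The fit was tested on simulated data. A count of 0 allows at most 0.0939 CPM (3 counts), counting error only. Replicates of a group differed beyond sampling noise (chi-square per degree of freedom 12.7 to 24.8).

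The members, lists and tests were chosen with earlier results of these data known. All 10 genes are named, and of each other list the called genes and the 2 furthest from 0 in A8 against vehicle; for the 2 genes with the widest range of group means, the 3 nearest in pattern. All 113 list genes were matched, SELENOS as VIMP and UFD1 as UFD1L, and ERN2 was too low to test. Transcript lengths and promoters served from GRCh38 tables. Alternatives were DESeq2 1.42.0 (size factors, Wald test), other filters, each library left out, a replicate block, a fit restricted to the groups compared, and removal of each library's GC or length trend.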

Additional observations from a re-analysis of the deposited data

Results flagged for a closer look

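The authors' deposited tables list a base mean per gene, the mean normalized count over the libraries of their fit, which cannot exceed the highest library when the same libraries are used. Divided by the highest normalized count among the 11 libraries, the authors' base mean was 1.97 for HERPUD1, 1.43 for DNAJB9, 1.148 for SYVN1, 1.11 for DNAJC3, 1.08 for SEL1L and 1.01 for XBP1. For HERPUD1 the authors' deposited base mean was 5332 and the highest of the 11 libraries was at 2704. The other 4 genes were below their highest library. Over all genes tested, 207 of 15591 (1.33%) were above it, as were 9 of 10 ER chaperone genes of the ATF6 arm, 6 of 24 other XBP1s targets, 3 of 16 recognition and retrotranslocation genes, 3 of 18 genes of the PERK and ATF4 arm, 2 of 21 ubiquitin ligase and extraction genes and 0 of 13 partners of IRE1. The comparisons above do not use these base means, and how they arose was not tested.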

How the results depend on the processing

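Fold changes of the 10 genes were recomputed 830 times, and 822 kept their side of the threshold. The other 8 were calls of HERPUD1, which was gained 2 times and lost 6 times. A direction was read only where a value was called or its 95% interval left out 0, and by that rule none reversed. Values outside that rule did change sign, such as the interaction of SEC61B in 6 of 17 alternatives. In A8 against vehicle, 1 of the 10 genes was called in DESeq2's Wald test and 1 with the length trend removed, against 0. In A8 with ISRIB against A8, 0 were called with a replicate block, 0 in a fit of only the groups compared, and 0 to 1 with each library left out, against 1. With the replicate block the HERPUD1 log2 fold change there was -0.33 with an edgeR adjusted p of 0.239, and the fit of only the groups compared gave 0.118. Same-numbered libraries correlated from -0.133 to 0.138 in their deviations from the group means. Trends of whole libraries with length and GC also enter these deviations, so whether the numbers pair the samples was not settled. No paired analysis was possible for comparisons with ISRIB alone because the replicate numbers of its columns and titles differ. Removal of the GC or length trend was chosen after seeing the data. The count of all genes called in A8 against vehicle was 13 higher and 9 lower, against 61 and 68 in DESeq2, 59 and 45 with no filter, 27 and 13 with the GC trend removed, 54 and 53 with the length trend removed, and 11 and 4 with the replicate block. It was 10 and 4 without A8 library 1, 11 and 3 without A8 library 2, 13 and 5 without A8 library 3, 12 and 5 without vehicle library 2, and 14 and 6 without vehicle library 3. In A8 with ISRIB against A8, 25 genes were called lower, against 38 in DESeq2, 41 with no filter, 13 with the replicate block and 14 to 29 with each library left out. Depth limits DNAJB9 most, at 2.79 to 3.62 CPM.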

Other observations

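The letters TTGCATCA found upstream of HERPUD1 were also in the window of AARS, 1 of the 3 genes nearest to it in pattern, at 187 to 180 bases before the start. RefSeq sequence (GRCh38.p14) around each is shown with the match in capitals, at chr16:56931955-56931984 on the plus strand for HERPUD1 and chr16:70289675-70289704 on the minus strand for AARS.
HERPUD1: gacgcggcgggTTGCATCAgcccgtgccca
AARS: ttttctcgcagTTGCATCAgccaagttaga
The MARS window held no match, and YARS was not matched in the table. Among the listed genes, the same core was in 3 of 17 windows of the PERK and ATF4 arm (17.6%) and in 0 of 10 of the ATF6 arm. It was in 1 of 9 windows of the genes described here (11.1%) and in 1 of 20 of the other XBP1s targets (5%). The other 3 lists had it in 0 of 12, 0 of 13 and 0 of 15 windows, and all 35116 windows had it in 1104 (3.14%). AARS was picked for its likeness to HERPUD1 in these data, and whether either match has a role was not tested. The ER stress response element with any last base, also upstream of HERPUD1, was in 5 of 10 windows of the ATF6 arm. It was in 1 of 17 of the PERK and ATF4 arm and in 2 of 9 of the genes described here. The second form of the element, upstream of HERPUD1 as well, was in 2 of 10, 0 of 17 and 1 of 9 of these windows. Whether those matches have a role was not tested either.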
